A study of Mus musculus with 8 samples.

Results

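The genes described are 38 components of the TGF-beta and BMP signaling pathways: the ligands and the proteins that hold them latent, their receptors and antagonists, the SMAD proteins, and the inhibitors of DNA binding (ID proteins). They were chosen by gene symbol and by no rule on measured values, though earlier results of these data were known. The deposited count table of 18768 mouse genes held 37 of the 38, and Gdf6 was not analysed here. A filter on low counts passed 33 of these 37 genes to the test, and Bmp7, Gdf5, Gdf10 and Nog are given below by their counts alone.

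TGF-beta ligands are secreted in a latent complex, which the latent TGF-beta binding proteins (LTBPs) anchor in the extracellular matrix, and once released they assemble type II and type I receptor kinases that phosphorylate SMAD2 and SMAD3. BMP ligands act through other receptors of the same family, which phosphorylate SMAD1, SMAD5 and SMAD9, while chordin and noggin bind BMPs outside the cell. Both sets of SMADs join SMAD4 in the nucleus, where Id genes are well-known BMP targets and Smad6 and Smad7 encode feedback inhibitors. In fibroblasts and other mesenchymal cells TGF-beta is best known for inducing matrix and contractile genes.

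RNA was sequenced from 4 tumor cell lines raised by injecting the carcinogen methylcholanthrene (MCA) under the skin of mice. MC010KO and MC011KO came from tumors of IRF8 knock-out mice on the study's description, and MC654WT and MC659WT from tumors of wild-type C57BL/6 mice. Every line was grown out of a digested fibrosarcoma in RPMI medium with serum and antibiotics, with no further treatment, so that a line stands for 1 tumor, and each gave 2 libraries of 74063616 to 116206078 counts. No source used here says that the 2 libraries of a line were separate cultures, so p-values measure the spread between libraries, which may be technical, and 2 lines a label stand behind every comparison of labels. A comparison of 2 lines with 2 lines by an exact permutation test cannot go below p = 0.333 (two-sided).

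Irf8, the gene deleted by design, was counted 442 and 347 times in the MC010KO libraries and 32 and 10 times in those of MC011KO. The 4 WT-labelled libraries held 0 to 2 counts each. RNA of the targeted gene was thus higher in the KO-labelled libraries, the reverse of what the labels alone would give, and counts over a whole gene cannot tell a deleted allele from an intact one. The study genotyped its lines by PCR of genomic DNA, which was not analysed here. The groups are called KO-labelled and WT-labelled throughout for this reason, and every direction below is one between labels. Mesenchymal markers summed to 5004 to 7739 counts per 1000000 (CPM, scaled by edgeR's trimmed mean of M values) across all libraries. Most of that sum was Vim, at 4532 to 7384 CPM. Hematopoietic markers, of which 5 of 10 were in the table, summed to 6.29 to 7.57 CPM in KO-labelled and 9.92 to 11.6 CPM in WT-labelled libraries. Here most of the sum was Cd68, at 5.25 to 6.74 CPM and 8.25 to 10.1 CPM.

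The promoters of 4 members that were higher in the KO-labelled libraries are shown first, because they belong to genes that BMP or TGF-beta signals are known to control (Smad6 and Id3) or to the members with the largest differences by label (Bmp4 and Id4). Each runs from 250 bases before to 50 bases after the RefSeq start of the gene, 5′ to 3′ on the gene's strand, build GRCm38.p6. They lie at chr9:64022010-64022309 on the minus strand (Smad6), chr4:136143572-136143871 on the plus strand (Id3), chr13:48260866-48261165 on the plus strand (Id4) and chr14:46390620-46390919 on the minus strand (Bmp4). Capitals mark 3 motifs searched on both strands, the palindrome GTCTAGAC and the short form CAGAC of the SMAD binding element, and the GC-rich SMAD motif GGCGCC.
Smad6: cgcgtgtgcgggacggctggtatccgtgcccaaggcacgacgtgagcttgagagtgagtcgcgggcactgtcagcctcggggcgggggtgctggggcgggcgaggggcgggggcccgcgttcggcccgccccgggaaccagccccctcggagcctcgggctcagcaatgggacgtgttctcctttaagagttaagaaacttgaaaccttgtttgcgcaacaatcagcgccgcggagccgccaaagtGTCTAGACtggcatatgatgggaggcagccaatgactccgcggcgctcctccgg
Id3: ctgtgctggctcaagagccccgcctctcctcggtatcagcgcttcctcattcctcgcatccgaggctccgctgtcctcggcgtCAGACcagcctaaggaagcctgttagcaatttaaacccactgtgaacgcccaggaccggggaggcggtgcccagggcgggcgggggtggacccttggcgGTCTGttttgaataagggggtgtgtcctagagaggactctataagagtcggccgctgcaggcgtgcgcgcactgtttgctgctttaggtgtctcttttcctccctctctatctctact
Id4: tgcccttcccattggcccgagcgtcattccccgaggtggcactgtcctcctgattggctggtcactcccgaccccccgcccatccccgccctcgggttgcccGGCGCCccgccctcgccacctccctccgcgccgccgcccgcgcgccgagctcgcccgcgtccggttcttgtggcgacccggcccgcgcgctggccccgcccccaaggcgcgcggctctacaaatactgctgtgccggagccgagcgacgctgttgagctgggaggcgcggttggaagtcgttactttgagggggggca
Bmp4: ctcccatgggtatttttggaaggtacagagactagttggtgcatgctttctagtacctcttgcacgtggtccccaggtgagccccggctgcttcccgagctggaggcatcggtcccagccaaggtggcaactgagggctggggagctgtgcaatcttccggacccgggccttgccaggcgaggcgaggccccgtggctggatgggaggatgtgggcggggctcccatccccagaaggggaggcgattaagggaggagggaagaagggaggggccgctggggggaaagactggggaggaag

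The Smad6 window held the palindrome, which stood in 0.213% of 32851 RefSeq promoters of this length. Id3 held the short form on each strand. That form is common, at 49.6% of all promoters. The window of Id4 held GGCGCC, found in 11.9% of promoters, and that of Bmp4 none of the 3 motifs. No 2 of these motifs overlapped in the 4 windows. Smad2, Smad4 and Smad7, on chromosome 18, were left out of the search for promoters of members. RefSeq promoters elsewhere matched 25 of the 38 members. Of the 25, 13 held the short form, 10 held GGCGCC and 1 held the palindrome. Motifs of the kind IRF proteins bind were spelled GAAA or GGAA followed by any 2 bases and GAAA. They stood in 3.44% and 2.72% of all promoters and in no window of these 25 members. A match describes letters in the window and no more.

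Compared by label, 11 of the 33 tested members were higher and 1 was lower in KO-labelled libraries. The threshold was a Benjamini-Hochberg adjusted p under 0.05 with a log2 fold change above 0.59 in size, in edgeR's quasi-likelihood test over all 15153 genes tested. Of all genes tested, 13.7% were higher and 8.72% lower at this threshold. The 11 were Bmp2, Bmp4 and Bmp6 among the ligands, the receptors Tgfbr1 and Acvrl1, the antagonist Chrd, Smad3, Smad6, Id1, Id3 and Id4, and the lower member was Smad9. The median log2 fold change was 0.37 over the tested members and 0.02 over all genes tested. For each of these 12 members the 4 KO-labelled libraries did not overlap the 4 WT-labelled ones. The difference had 1 sign in all 4 pairs of a KO-labelled with a WT-labelled line. Both traits were read on the libraries that gave the calls and are no separate support. Tgfb3, Bmpr2, Smad2 and Smad5 showed both without passing, and the share over all genes tested was not counted. When the 2 libraries of each line were summed, none of the 12 passed, with adjusted p between 0.0606 and 0.33. No gene of the 15153 tested passed in that setting, so the loss is not particular to these members. Over all 33 tested members, 10 had an unadjusted p under 0.05 in that edgeR test. In limma-voom with a random effect of the line, 8 members passed, and without the line MC659 edgeR called 6.

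**Figure D1:**
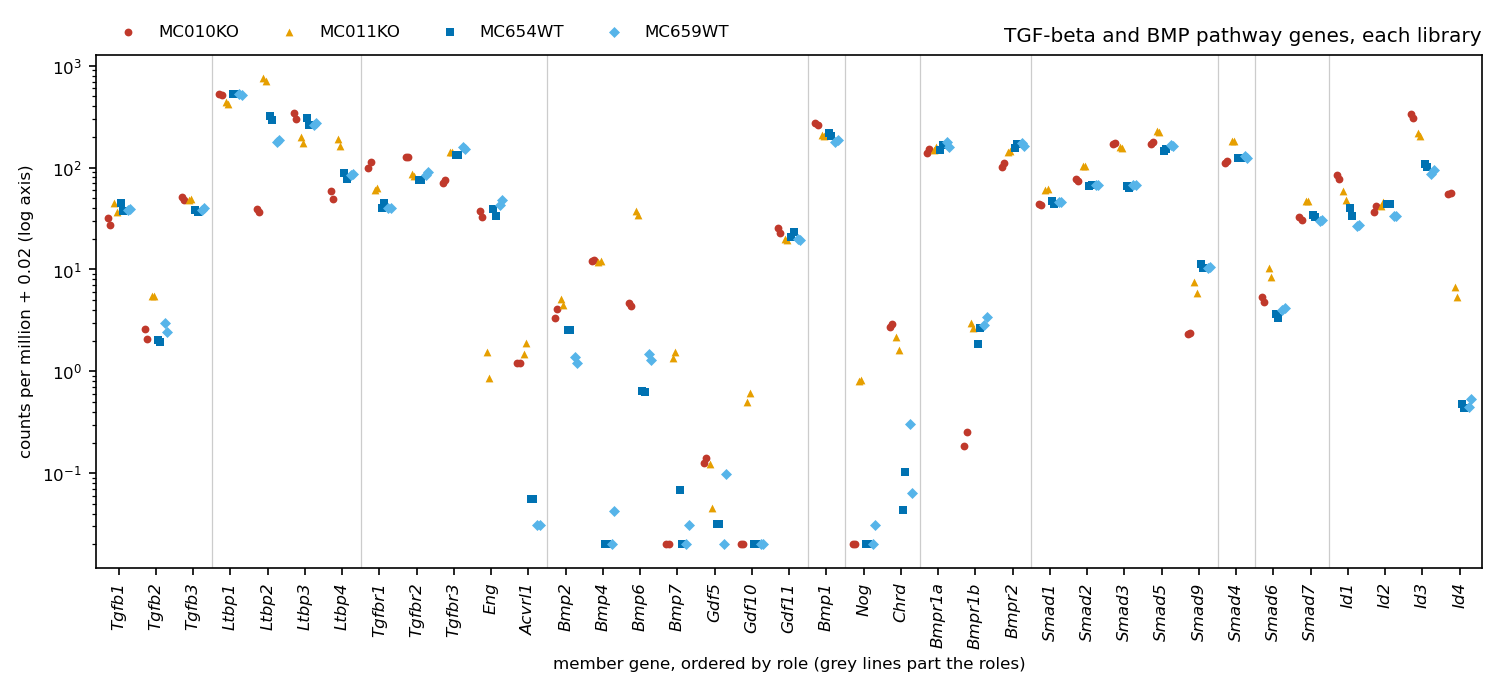
Expression of the 37 members in the table, as CPM plus an offset of 0.02 on a log axis, in each of the 8 libraries (1 point per library, colored by line; points at the bottom are at 0). Bmp4, Acvrl1, Chrd and Id4 separate the red and orange KO-labelled libraries from the blue WT-labelled ones by the widest gaps, while Ltbp1, Bmpr1a and Id2 sit within narrow ranges in all lines.

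Taken line by line, each KO-labelled line differed from the WT-labelled lines in 17 of the 33 tested members, with other shares in each direction. In MC010KO 11 members were higher and 6 lower, where 19.7% of all genes tested were higher and 17.4% lower. In MC011KO 15 were higher and 2 lower, against 17.3% and 13.4% of all genes. Both comparisons share the WT-labelled libraries. The KO-labelled lines differed from each other in 15 members, 6 higher and 9 lower in MC010KO, where 15.7% and 16.0% of all genes did so. The WT-labelled lines differed in 3 members, with Ltbp2 and Bmp2 higher and Bmp6 lower in MC654WT, where 1.24% of genes were higher and 3.71% lower. These comparisons of single lines measure the spread between 2 libraries of a line, not between tumors.

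**Figure D2:**
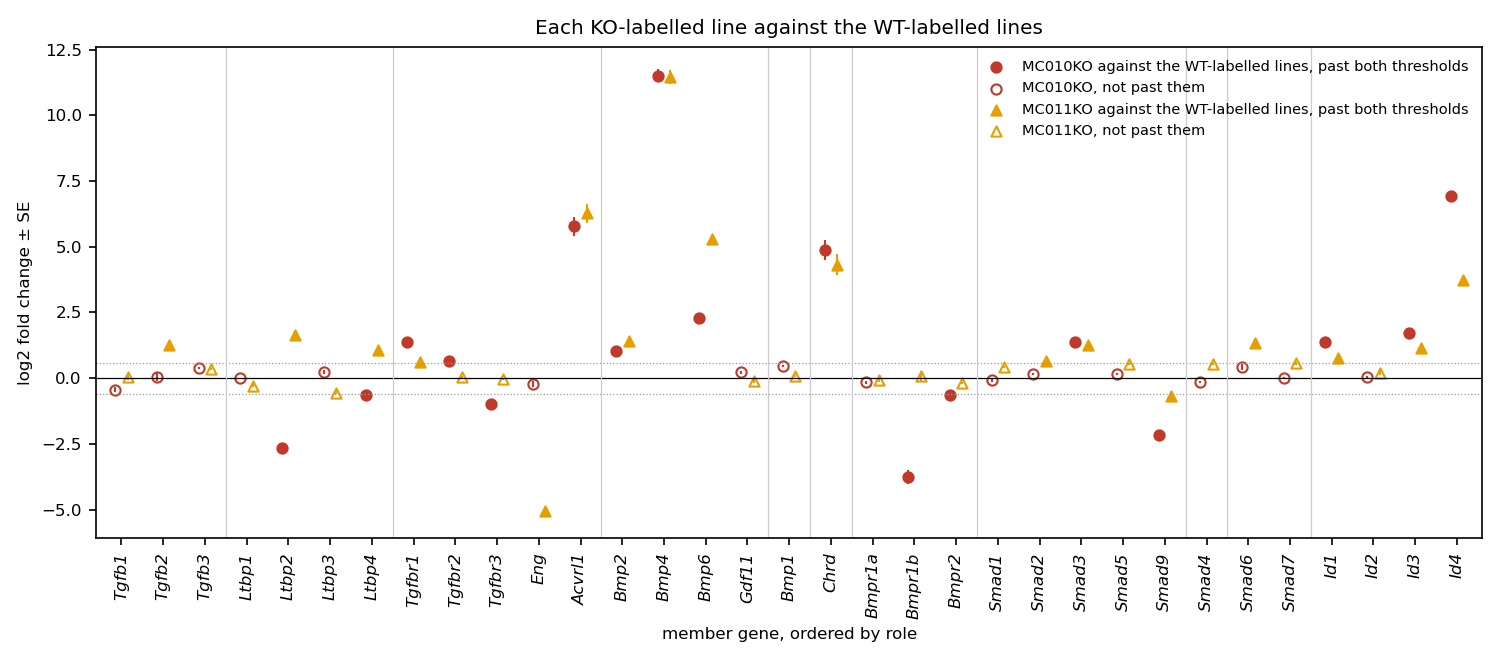
Log2 fold change of each tested member in MC010KO (circles) and MC011KO (triangles) against the mean of the WT-labelled lines, with standard errors from edgeR; filled symbols passed both thresholds, dotted lines mark 0.59, and grey lines part the roles. The values of Bmp4 rest on 2 counts in the WT-labelled libraries; Ltbp2 and Ltbp4 lie on opposite sides of 0 in the lines.

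Among the TGF-beta ligands, Tgfb1 and Tgfb3 RNA was present at similar levels in all lines. Tgfb1, which encodes the most studied isoform, stood at 31.9 and 27.1 CPM in MC010KO, 44.9 and 36.9 in MC011KO, 45.2 and 37.5 in MC654WT, and 38.4 and 39.3 in MC659WT. MC010KO held the lowest 2 values, and the labels did not differ past the threshold (log2 fold change -0.19, SE 0.15, adjusted p = 0.366). Tgfb3 was 49.3 ± 1.85 CPM (SD, n = 4) in KO-labelled and 38.1 ± 1.2 CPM (SD, n = 4) in WT-labelled libraries, with no overlap. Its log2 fold change of 0.37 (SE 0.05, adjusted p = 0.00132) was under the fold threshold. Tgfb2 was the scarcest isoform per kilobase of exon, at 0.401 CPM per kilobase in MC010KO, 0.944 in MC011KO, 0.338 in MC654WT and 0.465 in MC659WT. It was higher in MC011KO than in the WT-labelled lines (log2 fold change 1.25, SE 0.13, adjusted p = 7.22e-07).

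Of the 4 latent TGF-beta binding proteins, Ltbp2 differed most between the KO-labelled lines. Ltbp2 encodes a matrix protein of the elastic fiber that, unlike the other LTBPs, does not bind latent TGF-beta. It stood at 39.3 and 36.7 CPM in MC010KO, 758 and 714 CPM in MC011KO, 324 and 294 CPM in MC654WT, and 179 and 188 CPM in MC659WT. MC010KO thus held the lowest libraries and MC011KO the highest, with the WT-labelled lines between them. The log2 difference of MC010KO from MC011KO was -4.27 (SE 0.06, adjusted p = 1.23e-16). Against the WT-labelled lines it was -2.65 (SE 0.06) in MC010KO and 1.63 (SE 0.04) in MC011KO, so the comparison of labels gave 0.65 with an SE of 0.95. Ltbp4, which supports elastic fiber assembly and binds latent TGF-beta1, had the same order.

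Ltbp4 read 58.4 and 49.1 CPM in MC010KO, 189 and 162 CPM in MC011KO, and 76.4 to 88.1 CPM in the WT-labelled libraries. Its log2 fold change was -0.64 (SE 0.08) in MC010KO and 1.07 (SE 0.07) in MC011KO, and both passed. These were the only 2 members called in opposite directions in the KO-labelled lines. Ltbp3 was higher in MC010KO, at 343 and 302 CPM, than in MC011KO, at 201 and 176 CPM (log2 difference 0.77, SE 0.08, adjusted p = 7.66e-07). Ltbp1, which anchors the latent complex to fibronectin and fibrillin, lay between 424 and 525 CPM in every library.

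Of the TGF-beta receptors, Tgfbr1, the type I receptor kinase, was higher in both KO-labelled lines. It stood at 99.1 and 113 CPM in MC010KO, 60.9 and 63.5 CPM in MC011KO, 39.8 and 44.6 CPM in MC654WT, and 40.2 and 39.9 CPM in MC659WT. The label difference was 1.03 on the log2 scale (SE 0.20, adjusted p = 0.00541), and MC010KO was above MC011KO by 0.77 (SE 0.07). Without MC654WT or without MC659WT the adjusted p for the labels was 0.0604 and 0.0775. Tgfbr2, the type II receptor, was 127 and 126 CPM in MC010KO and 75.1 to 89.5 CPM in the other 6 libraries, and passed in MC010KO (0.64, SE 0.04). Tgfbr3, the betaglycan coreceptor, went the other way, with 70.2 and 76.0 CPM in MC010KO and 132 to 158 CPM elsewhere.

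Eng and Acvrl1 encode endoglin, a coreceptor, and ALK1, a type I receptor for BMP9 and BMP10, both best known from endothelial cells. Acvrl1 read 1.19 and 1.18 CPM in MC010KO and 1.47 and 1.89 CPM in MC011KO. The WT-labelled libraries read 0.0111 to 0.0360 CPM. Summed over libraries this was 514 counts against 8, a ratio of 61.3 (95% exact counting interval 30.9 to 143). Every KO-labelled library was above every WT-labelled one (log2 fold change 5.86, SE 0.43, adjusted p = 4.91e-05). Eng, in contrast, was 37.1 and 32.7 CPM in MC010KO, 1.52 and 0.848 CPM in MC011KO, and 33.5 to 48.2 CPM in the WT-labelled libraries. It was lower in MC011KO alone, by -5.07 on the log2 scale (SE 0.15, adjusted p = 6.57e-13), with MC010KO at -0.22 (SE 0.10, adjusted p = 0.0581).

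Endothelial markers were low beside Eng in MC010KO and the WT-labelled lines, but not beside Acvrl1. Tie1, an endothelial receptor kinase, stood at the level of Acvrl1 in MC010KO, at 1.49 and 1.33 CPM. Of the 8 listed endothelial markers 6 were in the table, and their sum was 1.05 to 2.47 CPM in KO-labelled and 0.703 to 0.887 CPM in WT-labelled libraries. Pecam1, Cdh5 and Vwf, which define the cell type, did not pass 0.412 CPM in any library. In MC011KO, at 3 to 8 counts a library, Pecam1 and Cdh5 were lower than in the WT-labelled lines. The log2 fold changes were -1.61 (SE 0.60) and -2.79 (SE 0.61), and both passed, while Vwf did not. Tie1 was counted 354 times in KO-labelled and 0 times in WT-labelled libraries, at least 113-fold higher against a floor of 3 counts over the group, and Tek was 0.273 ± 0.116 CPM (SD, n = 4) against 0.052 ± 0.0199 (SD, n = 4). The part of endothelial cells in the Acvrl1 difference was not tested. In bulk RNA a change in the number of cells of a type cannot be told apart from a change in RNA per cell. Eng shares positions on the other strand with Fpgs, which differed between MC010KO and MC011KO by -0.71, opposite in sign to Eng. Whether reads were counted by strand is not given in the sources used here.

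Among the members, Bmp4 gave the widest difference by label. Its RNA stood at 12.0 and 12.4 CPM in MC010KO and 11.7 and 12.1 CPM in MC011KO, while the WT-labelled libraries held 2 counts in all, both in MC659WT replicate 2. The KO-labelled total was 4381 counts, a ratio of 2090 with a 95% exact counting interval of 578 to 17264. The 4 KO-labelled libraries were within a narrow range (12.1 ± 0.29 CPM, SD, n = 4), and the KO-labelled lines did not differ past the threshold (log2 difference 0.04, SE 0.12, adjusted p = 0.812). The label test gave an adjusted p of 1.37e-05, and limma-voom with a random effect of the line gave 0.000381. Its fitted log2 fold change depends on the prior count and is not used here.

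Bmp6 was also higher in both KO-labelled lines but by different amounts. It read 4.62 and 4.33 CPM in MC010KO, 37.1 and 34.0 CPM in MC011KO, 0.623 and 0.612 CPM in MC654WT, and 1.45 and 1.26 CPM in MC659WT. No 2 lines overlapped. The label difference was 4.34 on the log2 scale (SE 0.86, adjusted p = 0.00562), and under the random effect of the line the adjusted p was 0.163. Bmp6 shares positions on the other strand with Txndc5, a gene of up to 63064 counts in a library, which differed from the WT-labelled lines by -0.28 in MC010KO and 0.56 in MC011KO.

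Bmp2, a ligand close to Bmp4, stood at 3.31 and 4.04 CPM in MC010KO, 5.08 and 4.44 CPM in MC011KO, 2.50 and 2.54 CPM in MC654WT, and 1.37 and 1.20 CPM in MC659WT. The KO-labelled libraries were all higher (1.15, SE 0.30, adjusted p = 0.0175), and the WT-labelled lines differed by 0.97 between themselves. Without MC659WT replicate 1 the adjusted p was 0.0509, and without that line the log2 fold change was 0.74 at an adjusted p of 0.09. Under the random effect of the line the adjusted p for Bmp2 was 0.101. Gdf11, a ligand of the activin branch, lay between 19.3 and 25.6 CPM in all libraries. Bmp1 is grouped by name, although it encodes a procollagen C-proteinase and no ligand of the family, and it lay between 177 and 276 CPM.

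Bmp7, Nog and Gdf10 were found in MC011KO. Bmp7, a ligand of epithelial and kidney development, had 250 counts in the 2 MC011KO libraries, 0 in MC010KO and 5 in the WT-labelled libraries, a ratio of 98.8 to the latter (95% exact counting interval 41.8 to 307). Nog, which encodes the BMP antagonist noggin, had 138 counts in MC011KO, 0 in MC010KO and 1 in the WT-labelled libraries. It was at least 49.3-fold higher in MC011KO than in MC010KO, and 273-fold (48.1 to 10849) higher than in the WT-labelled libraries. Gdf10 had 93 counts in MC011KO and 0 in every other library, at least 61.3-fold higher than the WT-labelled group. These intervals cover counting error only. Gdf5, a ligand of joint development, was at 0 to 0.122 CPM throughout.

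Chordin RNA, in contrast to that of noggin, was higher in both KO-labelled lines. Chrd read 2.71 and 2.91 CPM in MC010KO, 2.16 and 1.61 CPM in MC011KO, 0.0240 and 0.0824 CPM in MC654WT, and 0.283 and 0.0445 CPM in MC659WT. All KO-labelled libraries were above all WT-labelled ones, with 859 counts against 38 and a ratio of 21.6 (95% exact counting interval 15.6 to 30.7, adjusted p = 0.00187). Thpo, which shares positions with Chrd on the other strand, differed by 5.90 between the labels and reached 141 counts.

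**Figure D3:**
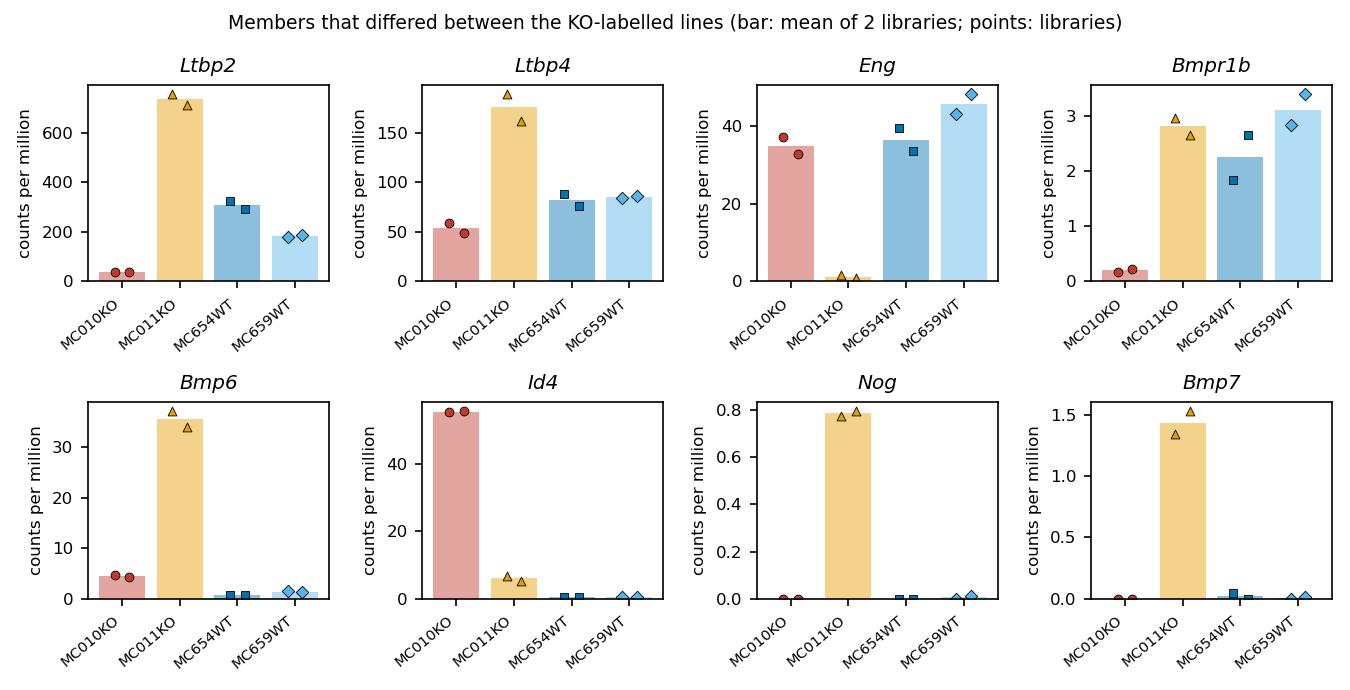
CPM on linear axes of 8 members, chosen after their values were seen, that differed between MC010KO and MC011KO or were counted almost only in MC011KO; bars are the mean of 2 libraries and points the libraries. Eng is near 0 only in MC011KO and Bmpr1b only in MC010KO, while Nog and Bmp7 rise above 0.1 CPM only in MC011KO.

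The BMP receptors differed little by label. Bmpr1a, a type I receptor, lay between 139 and 178 CPM in all libraries (log2 fold change -0.12, SE 0.07, adjusted p = 0.222). Bmpr2, the type II receptor, was 102 and 112 CPM in MC010KO, 143 and 147 CPM in MC011KO, and 157 to 173 CPM in the WT-labelled libraries. Both KO-labelled lines were below every WT-labelled library, but the label difference of -0.39 (SE 0.12, adjusted p = 0.0368) was under the fold threshold. Bmpr1b, the other type I receptor, was scarce, and it was lowest in MC010KO at 0.166 and 0.231 CPM. MC011KO read 2.98 and 2.67 CPM, inside the WT-labelled range of 1.85 to 3.41 CPM. MC010KO was lower than MC011KO by -3.86 on the log2 scale (SE 0.28, adjusted p = 9.04e-09).

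Among the SMADs the largest rise by label was that of Smad3, which carries the TGF-beta signal, while in MC011KO Smad6 rose by 1.32 and Smad3 by 1.25 on the log2 scale. It stood at 171 and 174 CPM in MC010KO, 159 and 154 CPM in MC011KO, 65.4 and 63.6 CPM in MC654WT, and 67.8 and 67.0 CPM in MC659WT. The libraries of each label lay close together and far from those of the other, with a log2 fold change of 1.32 (SE 0.06, adjusted p = 4.35e-06). Its adjusted p was 3.79e-05 under the random effect of the line, and 0.0606 with sums per line. Smad2, its partner in the same branch, was 76.8 and 73.5 CPM in MC010KO, 104 CPM in both MC011KO libraries and 65.6 to 67.8 CPM in the WT-labelled libraries. Its label difference of 0.42 (SE 0.12, adjusted p = 0.0299) was under the fold threshold, and it passed in MC011KO (0.64, SE 0.04).

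In the BMP branch Smad9 was the member that fell. Smad9, also known as SMAD8, read 2.29 and 2.38 CPM in MC010KO, 7.44 and 5.92 CPM in MC011KO, and 10.2 to 11.2 CPM in the WT-labelled libraries. The 3 ranges did not overlap, and the label difference was -1.23 (SE 0.39, adjusted p = 0.0394). The call was lost without any 1 WT-labelled library (adjusted p = 0.0783 to 0.086) and without either MC010KO library (0.0647 and 0.0644). Smad1 and Smad5, which are far more abundant per kilobase of exon, did not pass by label. Smad1 was 42.8 to 62.2 CPM over all libraries, and Smad5 was 0.36 higher on the log2 scale (SE 0.11, adjusted p = 0.036), under the fold threshold.

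Smad4, the common partner, was 110 and 116 CPM in MC010KO, 184 and 183 CPM in MC011KO and 123 to 131 CPM in the WT-labelled libraries. MC010KO was lower than MC011KO by -0.70 (SE 0.05, adjusted p = 3.28e-09), with the WT-labelled lines between them. Smad6, the inhibitor of BMP signals whose promoter is printed above, was 5.38 and 4.82 CPM in MC010KO, 10.3 and 8.41 CPM in MC011KO, 3.66 and 3.32 CPM in MC654WT, and 3.98 and 4.12 CPM in MC659WT. All KO-labelled libraries were higher (0.94, SE 0.26, adjusted p = 0.0221). Under the random effect of the line the adjusted p for Smad6 was 0.13. Without MC654WT or without MC659WT edgeR gave 0.173 and 0.113. Taken alone, MC010KO did not reach the fold threshold (0.44, SE 0.11), and leaving out 1 of 3 WT-labelled libraries gave adjusted p of 0.0527 to 0.0648. Smad7, the general inhibitor, was 30.7 and 32.6 CPM in MC010KO, 47.4 and 46.7 CPM in MC011KO and 29.6 to 33.9 CPM in the WT-labelled libraries, and did not pass in any comparison.

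Of the 4 inhibitors of DNA binding, which lack a DNA-contacting region and sequester E proteins, 3 were higher in both KO-labelled lines. Id3 stood at 338 and 308 CPM in MC010KO, 221 and 205 CPM in MC011KO, 108 and 101 CPM in MC654WT, and 86.2 and 95.1 CPM in MC659WT. Each KO-labelled line was above both WT-labelled lines, and MC010KO was the higher (label difference 1.46, SE 0.17, adjusted p = 0.000479). Id1 followed the same order, at 85.3 and 76.6 CPM in MC010KO, 59.3 and 47.6 CPM in MC011KO, 39.8 and 33.1 CPM in MC654WT, and 26.5 and 27.2 CPM in MC659WT. Its label difference was 1.09 (SE 0.21, adjusted p = 0.00461). MC010KO was above MC011KO by 0.60 on the log2 scale in both genes, which just passes the fold threshold.

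Id4 was low in the WT-labelled lines, at 0.412 to 0.511 CPM, and read 6.71 and 5.30 CPM in MC011KO and 55.3 and 55.7 CPM in MC010KO. The lines fell into 3 separate levels, 6.93 (SE 0.10) above the WT-labelled lines on the log2 scale in MC010KO and 3.73 (SE 0.13) in MC011KO. The difference between MC010KO and MC011KO was 3.20 (SE 0.10, adjusted p = 3.56e-13). By label the difference was 6.08 (SE 0.94, adjusted p = 0.00173), and under the random effect of the line the adjusted p was 0.197. Id2 lay between 33.1 and 46.0 CPM in all libraries (0.11, SE 0.12, adjusted p = 0.515). Per kilobase of exon, Id3 had the highest level of the 37 members in all 4 lines, at 180 CPM per kilobase in MC010KO, 119 in MC011KO, 58.4 in MC654WT and 50.6 in MC659WT. Ltbp1 was next in MC659WT at 48.8 CPM per kilobase, within the spread of its libraries and those of Id3.

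Genes that TGF-beta is known to induce were then counted, from a list of 19 that were all tested. One was higher and 6 were lower in KO-labelled libraries, where 13.7% and 8.72% of all genes tested were. The list had a median log2 fold change of -0.50. Over this and the other lists beside the members, markers included, 36 genes were called by label. Of these, 22 passed in limma-voom with a random effect of the line. With sums per line in edgeR, where no gene tested passed, none did (29 at an unadjusted p under 0.05). Tagln and Fn1 were among the lower ones with the largest differences. Tagln, a contractile gene of smooth muscle and myofibroblasts, was 10.3 ± 3.99 CPM (SD, n = 4) in KO-labelled and 188 ± 19 CPM (SD, n = 4) in WT-labelled libraries (log2 fold change -4.18, SE 0.29, adjusted p = 4.07e-05). Fn1, encoding fibronectin, was 1142 to 2112 CPM against 7779 to 8132 CPM (-2.33, SE 0.22). Acta2, Lox and Ccn2 were also lower and are named here after their values were seen, and Lox lost its call without either MC659WT library (adjusted p = 0.0687 and 0.0645).

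Tgfbi, a secreted matrix protein, was the one higher target, at 120 to 417 CPM against 54.7 to 119 CPM. It passed with an adjusted p of 0.0405, and without any 1 WT-labelled library it did not, at 0.0624 to 0.105, nor without either MC010KO library, at 0.0935 and 0.0918. The WT-labelled lines differed in 7 of the 19 genes themselves, 1 higher and 6 lower in MC654WT, where 1.24% and 3.71% of all genes tested were.

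Of 10 listed BMP target genes other than the Id and Smad genes, 7 were tested. In KO-labelled libraries 3 were higher while 4 did not pass, where 13.7% of all genes tested were higher. The 3 were Hey1, Msx1 and Atoh8, all transcription factors. Msx1 was 2.14 ± 0.402 CPM (SD, n = 4) in KO-labelled and 0.267 ± 0.129 CPM (SD, n = 4) in WT-labelled libraries (log2 fold change 3.00, SE 0.36, adjusted p = 0.000491). Atoh8 was 14.4 to 26.1 CPM against 5.30 to 7.55 CPM (1.67, SE 0.23). Hey1 was 0.354 to 1.32 CPM against 0.0111 to 0.0941 CPM (4.31, SE 0.73). Groups did not overlap for any of these 3, which was read on the libraries that gave the calls and is no separate support. The share over all genes tested was not counted. The median over the 7 tested genes was -0.16, below the 0.02 over all genes tested.

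The list of other BMP antagonists and extracellular modulators held 15 tested genes, with a median of 0.78. Of these, 6 were higher and 2 lower, where 13.7% and 8.72% of all genes tested were. Under the random effect of the line 4 of these 8 calls were lost, those of Fst (adjusted p = 0.226), Grem1 (0.0729), Cer1 (0.0859) and Fstl3 (0.0602). With sums per line, where no gene tested passed, all 8 were lost (adjusted p = 0.0801 to 0.256, 6 at an unadjusted p under 0.05). Fst encodes follistatin, which binds activins and some BMPs. It stood at 393 and 407 CPM in MC010KO and 73.9 and 75.2 CPM in MC011KO, while the WT-labelled libraries held 13 counts in all, a ratio of 6456 (95% exact counting interval 3775 to 12126, counting error only). Grem1, encoding the BMP antagonist gremlin 1, was 956 and 999 CPM in MC010KO, 280 and 288 CPM in MC011KO and 127 to 234 CPM in the WT-labelled libraries (1.82, SE 0.50, adjusted p = 0.0218). Without either MC659WT library the adjusted p for Grem1 was 0.0656 or 0.0644, and without either MC010KO library 0.0502 or 0.0509. Rgma, a BMP coreceptor, was 0.95 higher (SE 0.12).

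Of the lower genes in this list, Cer1 had 5 counts against 77, and Crim1, which encodes a membrane protein that binds BMPs, was 96.6 ± 0.683 CPM (SD, n = 4) against 146 ± 5.21 CPM (SD, n = 4), at the edge of the fold threshold (-0.59, SE 0.05).

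Around the latent complex, 3 of 13 tested genes were higher and 2 lower, where 13.7% and 8.72% of all genes tested were. The median was 0.44. Under the random effect of the line the 3 higher calls were lost (adjusted p = 0.0813 for Nrros, 0.144 for Fbn2 and 0.128 for Aspn). With sums per line, where no gene tested passed, all 5 were lost (adjusted p = 0.0783 to 0.319, 4 at an unadjusted p under 0.05). Fbn2, encoding fibrillin-2 of the microfibrils that hold latent complexes, was 74.8 and 73.8 CPM in MC010KO and 16.4 and 14.8 CPM in MC011KO, against 5 counts in the WT-labelled libraries, a ratio of 3192 (1367 to 9831). Nrros, which tethers latent TGF-beta1 to the cell surface, was 0.685 to 1.05 CPM against 0.0453 to 0.276 CPM (2.66, SE 0.49). Aspn, a small proteoglycan that binds TGF-beta1, was 4.41 ± 1.19 CPM (SD, n = 4) in KO-labelled and 1.89 ± 0.888 CPM (SD, n = 4) in WT-labelled libraries, and the call (adjusted p = 0.0333) was lost without either MC654WT library, at 0.0718 and 0.0851, or either MC011KO library, at 0.0596 and 0.0709. Thbs1, encoding thrombospondin-1, which can activate latent TGF-beta, was 397 to 1090 CPM against 1993 to 2848 CPM (-1.71, SE 0.38). Itgb1, a subunit shared by many integrins, was 741 to 901 CPM against 1431 to 1548 CPM (-0.84, SE 0.07).

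Of 16 further ligands 4 were tested, and Bmp3 and Lefty1 were higher in KO-labelled libraries, as were 13.7% of all genes tested. Lefty1, an antagonist of Nodal signaling, was 3.05 to 7.76 CPM against 0.0471 to 0.159 CPM (5.83, SE 0.54). Bmp3 had 75 counts against 0, at least 23.9-fold higher. The median of the 4 was 3.28 with Bmp3 at that bound and 3.91 with its fitted value. One of 5 tested further receptors was higher (median 0.28), the activin type I receptor Acvr1b, at 40.1 to 47.3 CPM against 18.1 to 19.5 CPM (1.22, SE 0.07, adjusted p = 1.44e-05).

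Of 18 tested intracellular regulators 1 was higher and 2 were lower, where 13.7% and 8.72% of all genes tested were, and their median was -0.04. Skil, whose product SnoN represses SMAD-driven transcription, was 53.9 to 57.5 CPM in KO-labelled and 120 to 133 CPM in WT-labelled libraries (-1.17, SE 0.05, adjusted p = 5.11e-06). The KO-labelled lines were alike here, each -1.17 from the WT-labelled lines. Pmepa1, a TGF-beta-induced inhibitor of the pathway, was 31.1 to 50.2 CPM against 69.9 to 88.1 CPM (-0.93, SE 0.17). Wwp1, a ubiquitin ligase, was 156 and 165 CPM in MC010KO, 55.0 and 56.8 CPM in MC011KO and 41.3 to 46.4 CPM in the WT-labelled libraries, and lost its call without any 1 WT-labelled library (adjusted p = 0.065 to 0.0722) or either MC010KO library (0.0652 and 0.0653).

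**Figure D4:**
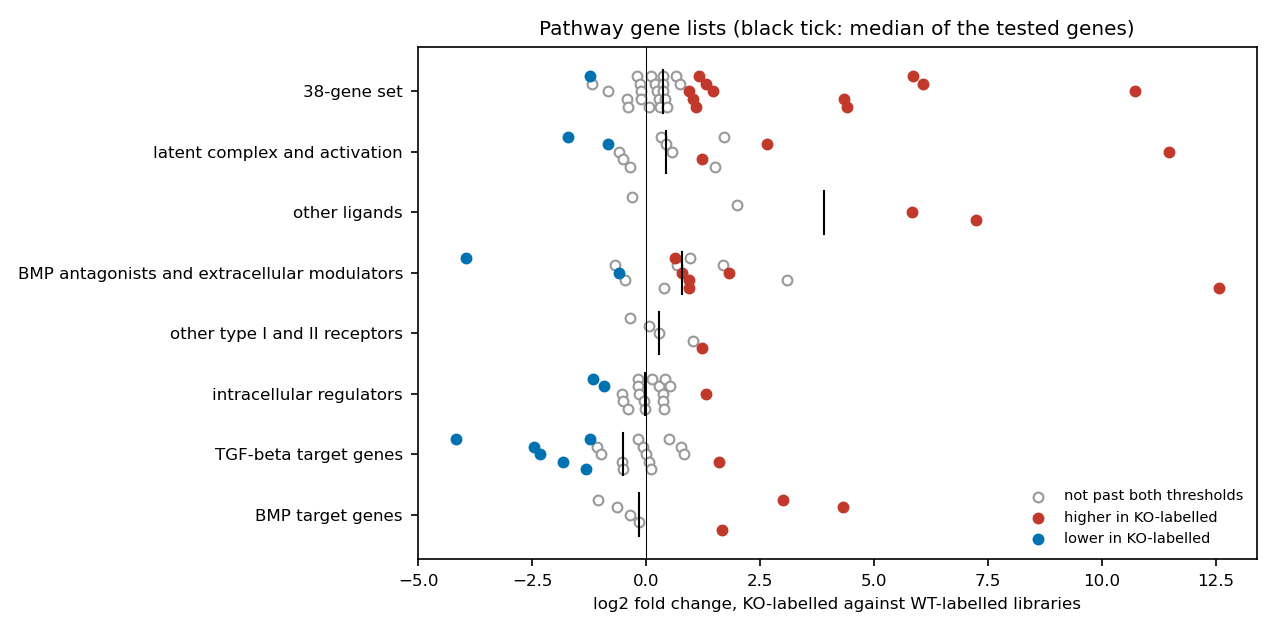
Log2 fold change between KO-labelled and WT-labelled libraries for every tested gene of the 38-gene set and of 7 further pathway lists; filled points passed both thresholds, red higher and blue lower, and black ticks are medians. Of 19 TGF-beta target genes 6 are filled on the left and 1 on the right, while the 38-gene set has 11 filled on the right and 1 on the left; fitted values above 6 rest on few counts in WT-labelled libraries, except that of Id4.

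Markers of other cells moved as follows with the labels, where 13.7% of all genes tested were higher and 8.72% lower. Of the mesenchymal list, 3 of 7 tested genes were higher and 4 did not pass (median 0.64): Pdgfra at 70.2 to 446 CPM against 17.1 to 19.9 CPM, S100a4 at 51.0 to 135 CPM against 19.5 to 20.5 CPM, and Thy1, whose libraries overlapped and which lost its call without any 1 WT-labelled library (adjusted p = 0.0847 to 0.104) or either MC011KO library (0.0897 and 0.0887). Of the hematopoietic list 1 of 3 tested was lower (median -0.58), Csf1r at 0.245 to 0.477 CPM against 0.935 to 1.80 CPM. Of the endothelial list 2 of 5 tested were higher (median -0.36), Tie1 and Tek as given above. The epithelial list, with 5 of 7 genes in the table, had 1 of 5 tested higher (median 2.20), Epcam at 0.313 to 1.19 CPM against 0.118 to 0.180 CPM. Its summed level was 34.1 to 565 CPM in KO-labelled and 114 to 129 CPM in WT-labelled libraries. Krt8 was 293 and 274 CPM in MC010KO, 1.31 and 1.28 CPM in MC011KO and 19.4 to 39.1 CPM in the WT-labelled libraries. Krt18 was 271 and 257 CPM, 30.4 and 32.4 CPM, and 77.3 to 109 CPM in the same order. Both passed as higher in MC010KO and lower in MC011KO, and are named here after their values were seen. The part of these markers in the differences of pathway genes was not tested.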

How the data were processed

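RNA was sequenced from 8 libraries of 4 mouse fibrosarcoma lines with a stranded mRNA kit. Per the labels, the authors' processing used STAR 2.7.3a, HTSeq 0.11.2 and DESeq2 on mm10 (GRCm38.p6); the study's methods name other versions of the same tools, and the strand option is not given in the sources used here. The deposited table holds raw counts per gene, all that was used here, for genes with at least 20 counts over the libraries and none on X or Y. The deposited normalized values are a signal scaled by the authors. The authors' comparison columns (a mean signal, a log2 fold change, a score given as test statistic, and p-values) were not used.

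Counts were tested with edgeR 4.0.16 in R 4.3.3 (TMM scaling, filterByExpr by label, robust quasi-likelihood fit), by label over all 8 libraries and with 1 group per line. Lengths are exon unions in GENCODE M21. Ratios with few counts carry 95% exact intervals, and the floor was 3 counts, 0.0258 to 0.0405 CPM in a library. On simulated data over 15153 genes the label test recovered 99 of 100 genes changed by a log2 fold of 1 with 4 false calls. The simulation took its spread from within lines and gave the lines of a label no difference. These counts therefore do not measure false calls that come from differences between tumors. Alternatives were DESeq2 1.42.0, limma-voom (limma 3.58.1), other scalings, no filter, no fold threshold, a replicate block, sums per line, and leaving out libraries or lines. Within a line, libraries differed by 7.51 to 12.85 chi-square units per degree of freedom, so none was counted as a copy.

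The members and the other lists were chosen with earlier results of these data known. Any member may be named; from each other list, up to 3 genes a direction with the largest called log2 fold change. Exceptions are marked. The defining endothelial markers, the genes that make up most of a marker sum and overlapping genes are named beside the results they touch. One gene that the rule would name and one overlap with a member are not reported here.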

Additional observations from a re-analysis of the deposited data

Results flagged for a closer look

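In 3 of 66 groups of 4 libraries, 1 library stood far from the others of its label, where chance flags about 1 in 20. These were Tgfbr1 in MC654WT replicate 2 at 44.6 CPM, Ltbp1 in MC659WT replicate 2 at 518 CPM, and Bmp4 in MC659WT replicate 2 at 0.0222 CPM, which is 2 counts. The first 2 are small departures within narrow groups, and the direction of the Tgfbr1 difference between labels did not rest on that library.

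The KO-labelled lines differed by edgeR's test of MC010KO against MC011KO in 15 members. On the log2 scale MC010KO was higher by 4.85 in Eng, 3.20 in Id4, 0.77 in Tgfbr1 and in Ltbp3, and 0.60 in Id1 and in Id3. The difference was -4.27 in Ltbp2, -3.86 in Bmpr1b, -2.99 in Bmp6, -1.70 in Ltbp4, -1.52 in Smad9, -1.22 in Tgfb2, -0.95 in Tgfbr3, -0.87 in Smad6 and -0.70 in Smad4. The line and anything particular to its tumor or culture cannot be told apart.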

How the results depend on the processing

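The 12 members called by label became 0 with the 2 libraries of each line summed, where 10 of all 33 tested members had an unadjusted p under 0.05. No gene tested was called in that setting. DESeq2 called 12 members, limma-voom with a random effect of the line 8, and edgeR without the line MC659 6. Leaving out single libraries gave 9 to 12, the lowest without MC659WT replicate 1. Without a fold threshold, 27 members were called in MC010KO and 26 in MC011KO against the WT-labelled lines, 27 between the KO-labelled lines and 9 between the WT-labelled lines. Most of all genes tested were also called without it in each of these comparisons that involve a KO-labelled line. Between the WT-labelled lines only a minority of all genes tested were. The high counts of members in that setting are therefore not particular to the members. With the fold threshold kept, leaving out single libraries gave 16 to 17, 15 to 18, 13 to 16 and 3 to 4 members in those comparisons, in the same order. Without the line MC011, Ltbp2 and Ltbp4 turned to -2.69 and -0.63 on the log2 scale and passed. The replicate numbers share only a number (correlations between lines of -0.12 to 0.19); with a replicate block 11 members were called by label, Smad9 being lost (adjusted p = 0.0621), and the other counts of members stayed at 17, 17, 15 and 3. All 33 tested members kept their side of the thresholds by label under DESeq2, relative log expression and upper-quartile scaling and no filter. With 2 lines a label, a difference between labels cannot be told apart from one between tumors, and levels under 0.0405 CPM are at the floor of a library.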
